A study of Mus musculus with 16 samples.

Results

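The 10 genes described here encode the enzymes and helper proteins of coenzyme Q synthesis: Pdss1, Pdss2, Coq2, Coq6, Coq3, Coq5, Coq7, Coq9, Coq8a and Coq8b. Their probes were found by matching the accession of each array probe to these gene symbols, with no use of a measured value. All 10 were measured, and they are 10 of the 14575 genes tested. Coenzyme Q, or ubiquinone, is the lipid that carries electrons from complex I, complex II and several other dehydrogenases to complex III of the respiratory chain. Mitochondria build it by joining a long isoprenoid tail to an aromatic ring and then modifying that ring in steps of hydroxylation and methylation. In humans, variants of COQ2, COQ6, PDSS2 and COQ8B cause forms of nephrotic syndrome in which damage falls on podocytes, the epithelial cells whose foot processes wrap the capillaries of the glomerulus.

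Polysome RNA was measured on 16 1-colour arrays, 4 in each of 4 groups, all from C57BL/6N mice that carry RiboTag and Nphs1-Cre. RiboTag puts an HA epitope on the ribosomal protein Rpl22 wherever Cre acts, and the promoter of Nphs1, which encodes nephrin, limits Cre to podocytes and any other cell in which that promoter is active. Podocyte RNA was taken from the polysomes that HA antibody pulled down, and glomerular RNA from polysomes left unprecipitated. The groups were podocyte RNA of normal Nphs1-RiboTag mice, podocyte RNA of Nphs1-RiboTag-NEP25 mice 4 days and 7 days after LMB2, and glomerular RNA of normal Nphs1-RiboTag mice. The NEP25 transgene places human CD25 on podocytes, which makes these cells a target of LMB2, an immunotoxin against CD25 that stops translation. A single tail vein dose of 0.625 ng LMB2 per g of body weight was used. The series text describes the normal mice without NEP25, and no injection is stated for them. Whether the 4 arrays of a group stand for 4 animals is not stated in the labels, so p-values measure the spread between these samples, which may be technical.

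The share of spots well above background was 49.3% to 57.5% per array, no spot was saturated, and the number of arrays limits the precision. Of 16 podocyte markers all 16 were higher in podocyte than in glomerular RNA (median log2 difference 2.37), which matches the label of the precipitated RNA. In the same comparison 16 of 16 proximal tubule, 11 of 11 mesangial and smooth muscle and 13 of 14 endothelial markers were lower. Both normal groups lay on slide 1 and both LMB2 groups on slide 2, each slide with its own scan. A change after LMB2 therefore cannot be told apart from a difference between slides, between scans, or between mice with and without NEP25. Podocyte against glomerular RNA and day 7 against day 4 are comparisons within 1 slide. On that of the normal mice both groups filled both rows, and on that of the LMB2 mice day 7 filled 1 row and day 4 the other, so row and day cannot be told apart. The same 4 normal podocyte arrays serve the comparison with glomerular RNA and with both days after LMB2, so these comparisons are not independent of each other.

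Levels are log2 intensities from which the 75th percentile of the same array was subtracted, so that 0 is that percentile. A probe's level depends on its sequence, and levels are compared between groups for 1 gene, not between genes. A difference is limma's log2 difference with its standard error, from 4 arrays per group. A gene is called higher or lower where limma's Benjamini-Hochberg adjusted p over all 14575 genes is under 0.05, and "rose" and "fell" are used for called genes. Of the 10 genes 9 were well above background on all 16 arrays, and Coq3 on 11 of 16.

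**Figure D1:**
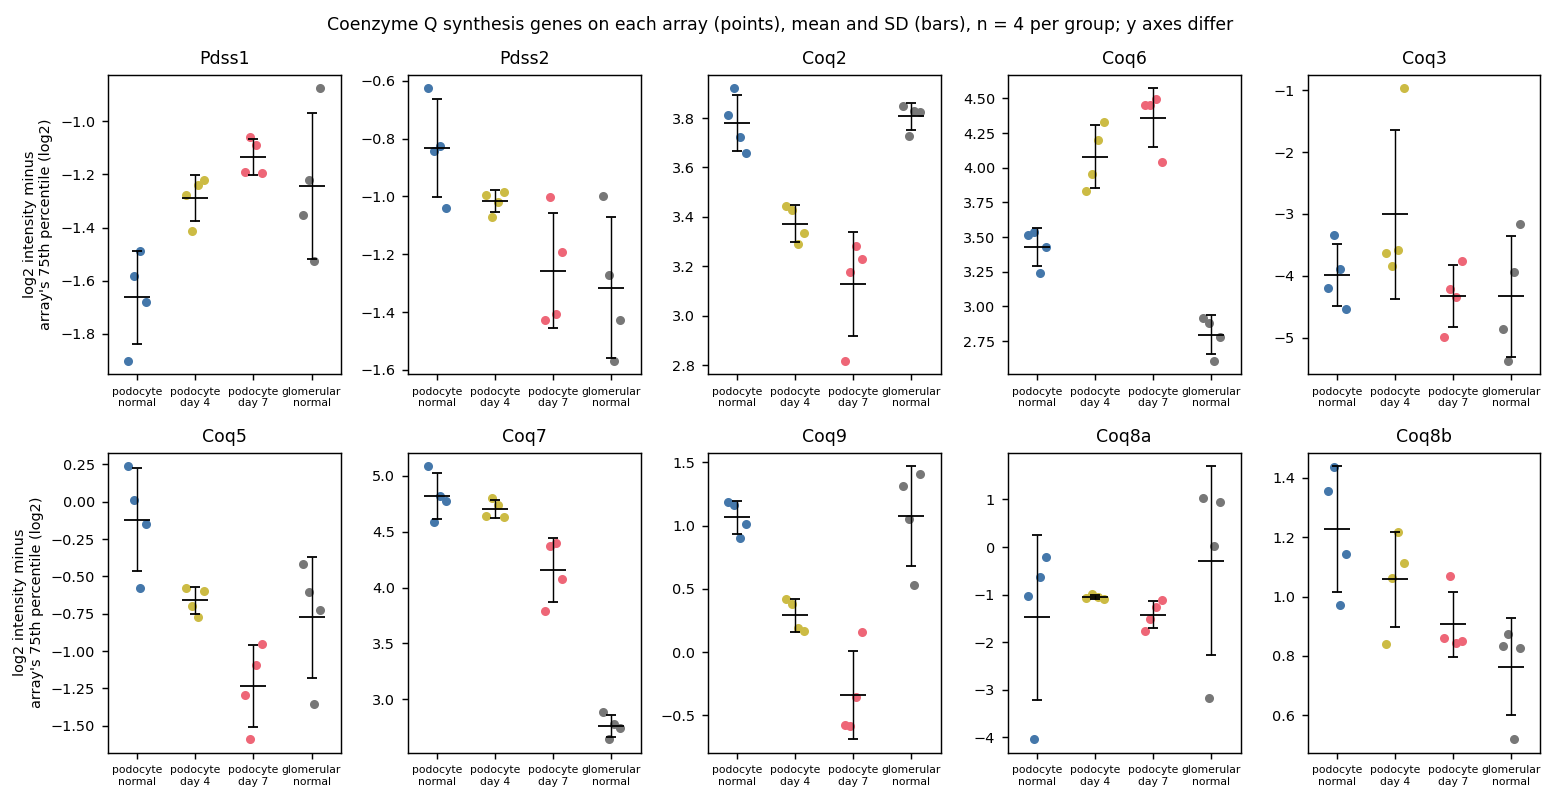
Level of each of the 10 genes on each array (y axis, log2 of intensity minus the array's 75th percentile) in normal podocytes, podocytes 4 and 7 days after LMB2, and normal glomerular RNA (x axis). Points are arrays, bars the mean and SD of 4, and the y axes differ between genes. Coq9 steps down from normal through day 4 to day 7, and Coq7 is set apart from glomerular RNA in all podocyte groups. Coq6 is higher on both days than in normal podocytes, while its day 4 and day 7 arrays overlap.

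The promoters of 4 members are shown. Coq6 and Pdss1 rose after LMB2, and Coq9 and Coq7 were among the 6 members that fell at day 7. Each window runs from 250 bases before to 50 bases after the start annotated by RefSeq on GRCm38.p6, on the gene's own strand. The windows are chr12:84361718-84362017 on the plus strand for Coq6, chr2:22895272-22895571 on the plus strand for Pdss1, chr8:94838163-94838462 on the plus strand for Coq9 and chr7:118533307-118533606 on the minus strand for Coq7. Capitals mark every match, on either strand, to a CCAAT box (CCAAT), a GC box (GGGCGG), an ETS core (CCGGAAG) or an ERR motif (AAGGTCA).
Coq6: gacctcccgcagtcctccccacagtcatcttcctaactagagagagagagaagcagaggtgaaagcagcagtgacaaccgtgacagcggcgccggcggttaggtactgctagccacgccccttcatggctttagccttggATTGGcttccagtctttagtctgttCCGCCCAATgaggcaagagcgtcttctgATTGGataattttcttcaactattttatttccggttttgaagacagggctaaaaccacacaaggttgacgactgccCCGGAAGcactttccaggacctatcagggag
Pdss1: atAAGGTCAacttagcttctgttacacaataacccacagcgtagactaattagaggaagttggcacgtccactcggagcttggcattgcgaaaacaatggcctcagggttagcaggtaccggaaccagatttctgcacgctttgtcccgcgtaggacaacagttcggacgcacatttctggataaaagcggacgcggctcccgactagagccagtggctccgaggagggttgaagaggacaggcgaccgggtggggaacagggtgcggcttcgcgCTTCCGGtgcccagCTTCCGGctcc
Coq9: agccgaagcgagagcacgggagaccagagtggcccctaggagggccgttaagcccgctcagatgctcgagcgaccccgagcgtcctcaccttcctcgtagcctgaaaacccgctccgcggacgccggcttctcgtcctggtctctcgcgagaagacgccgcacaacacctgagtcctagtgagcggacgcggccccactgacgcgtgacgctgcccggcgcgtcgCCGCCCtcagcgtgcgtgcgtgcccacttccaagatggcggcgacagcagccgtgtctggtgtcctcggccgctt
Coq7: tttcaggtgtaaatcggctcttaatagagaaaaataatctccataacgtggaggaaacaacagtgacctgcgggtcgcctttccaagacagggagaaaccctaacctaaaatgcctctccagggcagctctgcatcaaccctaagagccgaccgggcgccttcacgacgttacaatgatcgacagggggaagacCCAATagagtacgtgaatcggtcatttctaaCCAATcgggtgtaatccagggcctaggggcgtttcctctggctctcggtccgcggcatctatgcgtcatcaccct
The Coq6 window held 3 CCAAT boxes, 1 GC box that overlaps one of them, and 1 ETS core. The Pdss1 window held 2 ETS cores and 1 ERR motif, the Coq9 window 1 GC box, and the Coq7 window 2 CCAAT boxes. RefSeq windows were matched for 8 of the 10 genes. Among those 8, a GC box was found in 5, a CCAAT box in 3, an ETS core in 3 and an ERR motif in 1. The ETS core was not limited to genes that rose: the window of Pdss2, which fell at day 7, held 1, with 3 GC boxes. Of all 32851 windows of this length, 37.4% held the CCAAT box, 35.7% the GC box, 8.86% the ETS core and 4.72% the ERR motif. These shares count single windows, whereas the 8 genes had 10 windows and a gene was counted for a match in any of its own. These matches describe letters and are not evidence of binding.

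Podocyte RNA was set against glomerular RNA of normal mice to see how the pathway is represented on podocyte ribosomes. Coq7, the hydroxylase of a late ring step, was 4.16-fold higher in podocyte RNA. Coq5, Coq6, Pdss2 and Coq8b were higher by 1.38-fold to 1.57-fold, and Pdss1 was 1.34-fold lower. Coq2, Coq9, Coq3 and Coq8a did not pass the test, though Coq8a passed when same-numbered arrays were paired. Of all genes 79.1% were called in this comparison, 51.6% higher and 27.5% lower, so 6 calls among 10 genes are no more than the background. The groups did not overlap for 3 of the 10 genes (Coq6, Coq7 and Coq8b), against 73.0% of all genes. The median difference of the 10 genes was 0.40, and that of all genes was 0.38. Relative to this median gene Coq7 stood 1.67 higher, Coq5 0.27, Coq6 0.25, Pdss2 0.10 and Coq8b 0.08 higher, and Pdss1 stood at -0.80. When array medians were set to 0, the median of all genes moved to 0.74 and the split of called members was 6 higher and 0 lower.

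**Figure D2:**
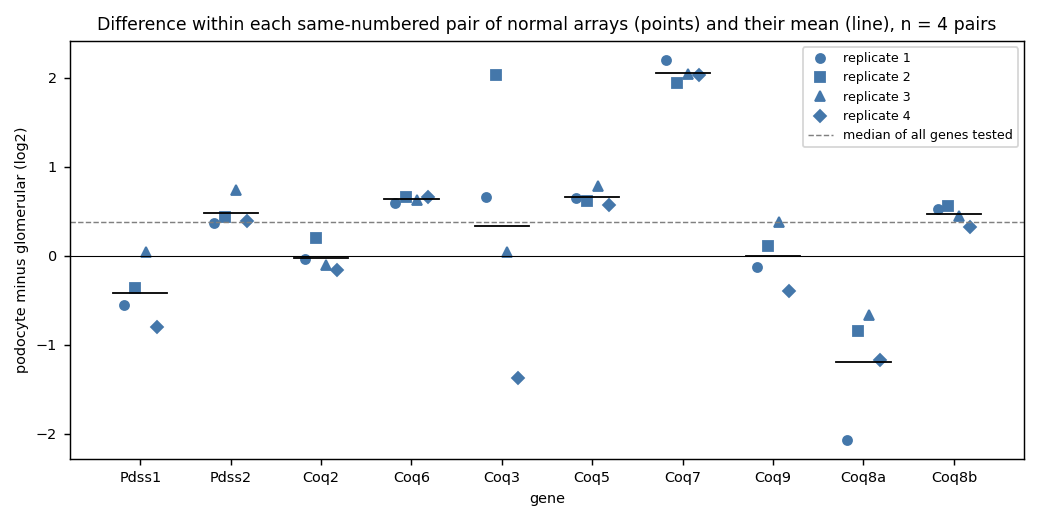
Difference between same-numbered podocyte and glomerular arrays of normal mice (y axis, podocyte minus glomerular, log2) for each of the 10 genes (x axis). Points are the 4 pairs, black lines their means, and the dashed line the median of all genes tested; the 4 Coq7 points lie between 1.95 and 2.20 and the 4 Coq6 points between 0.60 and 0.66.

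After LMB2, members of the pathway moved in both directions. At day 4 Coq6 and Pdss1 rose, by 1.57-fold and 1.30-fold, and Coq9 and Coq2 fell, by 1.71-fold and 1.33-fold, against normal podocytes. At day 7 Coq6 and Pdss1 were higher by 1.90-fold and 1.44-fold, and 6 genes were lower: Coq9 by 2.65-fold, Coq5 by 2.16-fold, Coq7 by 1.58-fold, Coq2 by 1.57-fold, Pdss2 by 1.34-fold and Coq8b by 1.25-fold. The comparison of day 7 with day 4 called 3 genes lower (Coq9, Coq5 and Coq7) and 0 higher. At an unadjusted limma p under 0.05 the counts were 5 and 0, with Coq2 and Coq3 added. Coq3 was near background and was kept for testing only through the day 4 group. Its day 4 mean rests on replicate 4 (-0.97), so it adds no support for a fall. Coq3 and Coq8a passed the test at neither time.

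At day 4 the 4 called genes among 10 stand beside 32.2% of all genes (12.3% higher, 19.9% lower), and the groups did not overlap for 4 of the 10 against 33.1% of all genes. The median difference was -0.14 for the 10 genes and -0.12 for all genes. At day 7 the 8 called genes stand beside 58.3% of all genes (21.6% higher, 36.7% lower), and the groups did not overlap for 6 of the 10 against 50.6% of all genes. There the medians were -0.38 for the 10 genes and -0.14 for all genes. Between day 7 and day 4 the 3 calls stand beside 34.0% of all genes (13.2% higher, 20.7% lower), and 6 of the 10 genes did not overlap against 34.2% of all genes. The medians were -0.31 for the 10 genes and -0.07 for all genes. When array medians were set to 0, the median of all genes moved to -0.39 at day 4 and -0.48 at day 7. The called members were then 0 higher and 3 lower at day 4, and 1 higher (Coq6) and 6 lower at day 7. With quantile normalization the split was 1 higher and 2 lower at day 4, and 1 higher and 3 lower for day 7 against day 4.

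**Figure D3:**
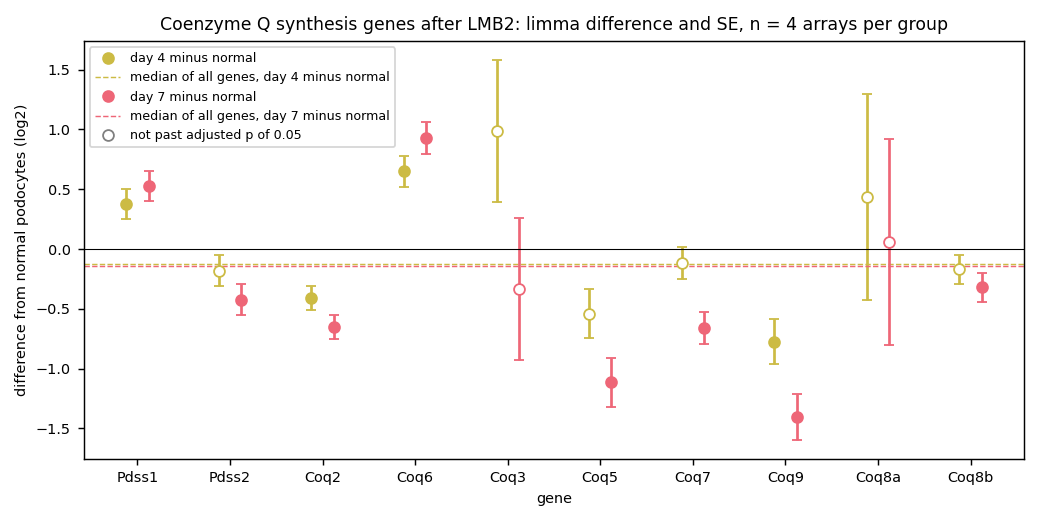
Difference of podocytes 4 and 7 days after LMB2 from normal podocytes (y axis, log2, limma difference and SE, n = 4 arrays per group) for each of the 10 genes (x axis). Filled points passed an adjusted p of 0.05 and dashed lines are the medians of all genes; Coq9 reaches -1.40 and Coq6 0.93 at day 7.

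Pdss1 and Pdss2 encode the 2 subunits of the polyprenyl diphosphate synthase that builds the isoprenoid tail. Pdss1 read -1.90, -1.58, -1.49 and -1.68 on the normal podocyte arrays, -1.28, -1.41, -1.24 and -1.22 at day 4, and -1.19, -1.06, -1.09 and -1.19 at day 7. Its glomerular arrays read -1.35, -1.22, -1.53 and -0.88. All 8 arrays after LMB2 were above all 4 normal podocyte arrays, day 7 lay just above day 4, and the glomerular arrays overlapped with all podocyte groups. Pdss1 was higher by 0.37 ± 0.13 at day 4 (adjusted p = 0.034) and by 0.53 ± 0.13 at day 7 (adjusted p = 0.0023), and the days did not differ past the threshold (0.15 ± 0.13, adjusted p = 0.37). The day 4 call did not hold without day 4 replicate 1, 3 or 4 or normal podocyte replicate 1 or 4, at 0.30 to 0.37 with adjusted p between 0.062 and 0.105. It was also lost after setting array medians to 0 (0.11), with quantile normalization (0.27), with normexp and quantile normalization (0.18) and with no probe filter (0.37, adjusted p = 0.054). The day 7 call was lost after setting array medians to 0 (0.19). Podocyte RNA was lower than glomerular RNA by a log2 difference of -0.42 ± 0.13 (adjusted p = 0.0068), which shrank to -0.23 with quantile normalization, to -0.14 with normexp before it and to -0.06 after setting array medians to 0, none of them called.

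Pdss2 went the other way after LMB2. Its levels were -0.63, -0.84, -0.83 and -1.04 in normal podocytes, -0.99, -1.07, -1.02 and -0.98 at day 4, and -1.43, -1.0, -1.41 and -1.19 at day 7. In glomerular RNA they were -1.0, -1.27, -1.57 and -1.43. Day 7 was lowest on average among the podocyte groups, with 1 of its arrays above the lowest normal array. The day 7 difference from normal was -0.42 ± 0.13 (adjusted p = 0.012), and that of day 4 was -0.18 ± 0.13 (adjusted p = 0.31). With normexp and the 75th percentile the day 7 value was -0.21 and not called (adjusted p = 0.072). Podocyte RNA was higher than glomerular RNA by 0.48 ± 0.13 (adjusted p = 0.0034), and by 0.37 to 0.74 within the 4 same-numbered pairs. Its other probe gave only 0.09 for podocyte against glomerular RNA and -0.29 for day 7 against normal. With the mean of both probes the podocyte against glomerular call was lost (0.29, adjusted p = 0.075).

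Coq2 encodes the prenyltransferase that joins tail and ring. It read 3.81, 3.92, 3.72 and 3.66 in normal podocytes, 3.44, 3.43, 3.29 and 3.33 at day 4, and 2.82, 3.18, 3.28 and 3.23 at day 7. The 3 podocyte groups did not overlap and stood in the order normal, day 4, day 7 from high to low. Coq2 was lower by -0.41 ± 0.10 at day 4 (adjusted p = 0.0068) and by -0.65 ± 0.10 at day 7 (adjusted p = 6.8e-05). The step of day 7 against day 4, -0.25 ± 0.10, did not pass (adjusted p = 0.073), though it did without day 7 replicate 3 (-0.30, adjusted p = 0.048). Its other probe gave -0.49 at day 4 and -0.72 at day 7. Glomerular arrays read 3.85, 3.73, 3.83 and 3.83, within the spread of normal podocytes. The podocyte minus glomerular difference of -0.03 ± 0.10 (adjusted p = 0.81) depended on the scaling. It was called higher after setting array medians to 0 (0.33, adjusted p = 0.044) and called lower with quantile normalization (-0.41, adjusted p = 0.0018).

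Coq6 encodes a flavin-dependent ring hydroxylase. Normal podocyte arrays read 3.51, 3.54, 3.24 and 3.43, day 4 arrays 3.83, 3.96, 4.20 and 4.33, and day 7 arrays 4.45, 4.45, 4.49 and 4.04. Glomerular arrays were lowest, at 2.92, 2.88, 2.61 and 2.78. Every LMB2 array was above every normal podocyte array, and every podocyte array was above every glomerular array, while day 4 and day 7 overlapped through day 7 replicate 4. Coq6 rose by 0.65 ± 0.13 at day 4 (adjusted p = 0.0019) and by 0.93 ± 0.13 at day 7 (adjusted p = 3.2e-05). Day 7 exceeded day 4 by 0.28 ± 0.13, which did not pass (adjusted p = 0.115) but passed without day 7 replicate 4 (0.39, adjusted p = 0.032) and with quantile normalization (0.33, adjusted p = 0.043), also after normexp (0.35). The day 4 call was lost after setting array medians to 0 (0.38, adjusted p = 0.092), where the median gene stood at -0.39. Podocyte RNA was higher than glomerular RNA by 0.63 ± 0.13 (adjusted p = 4.6e-04), with 0.60 to 0.66 in the 4 pairs. This difference stayed called but ranged from 0.26 to 0.99 over 4 other scalings, and from 0.01 to 0.31 relative to the median gene.

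Coq3 encodes the O-methyltransferase of the ring and its signal was near background. It was well above background on 3 of 4 normal podocyte, 4 of 4 day 4, 1 of 4 day 7 and 3 of 4 glomerular arrays. Its probe was thus kept for testing through the day 4 group alone. Normal podocytes read -4.20, -3.35, -3.89 and -4.53, day 4 podocytes -3.63, -3.83, -3.59 and -0.97, and day 7 podocytes -5.00, -4.21, -4.34 and -3.77. In glomerular RNA the values were -4.86, -5.37, -3.94 and -3.16. Day 4 replicate 4 alone stood far above the rest, and the groups otherwise overlapped. No comparison passed, with 0.99 ± 0.59 for day 4 against normal (adjusted p = 0.23), -0.34 ± 0.59 for day 7 against normal (adjusted p = 0.65) and -1.32 ± 0.59 for day 7 against day 4 (adjusted p = 0.10). Podocyte minus glomerular RNA was 0.34 ± 0.59 (adjusted p = 0.61).

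Coq5 encodes the C-methyltransferase of the ring. Its normal podocyte arrays read 0.24, 0.01, -0.58 and -0.15, its day 4 arrays -0.57, -0.70, -0.77 and -0.60, and its day 7 arrays -1.29, -1.59, -1.09 and -0.96. Glomerular arrays read -0.42, -0.60, -1.36 and -0.73. Day 7 lay below every normal podocyte and every day 4 array, and day 4 overlapped with normal through normal replicate 3. At day 7 Coq5 fell by 1.11 ± 0.20 on the log2 scale against normal (adjusted p = 3.1e-04). The day 4 difference of -0.54 ± 0.20 missed the threshold (adjusted p = 0.057). It passed in 9 of 27 alternatives, among them the mean of its probes (-0.49, adjusted p = 0.028), array medians set to 0 (-0.81, adjusted p = 0.020), both normexp settings and the authors' value table. It also passed without normal podocyte replicate 3 (-0.69, adjusted p = 0.020) and without glomerular replicate 3, which left its size at -0.54 (adjusted p = 0.024). The other Coq5 probe gave -0.43 at day 4 and -0.87 at day 7.

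Between day 7 and day 4 Coq5 differed by -0.57 ± 0.20 (adjusted p = 0.043), a call that held in 11 of 27 alternatives. It was lost without any 1 of the 4 day 4 arrays or without day 7 replicate 1, 2 or 3, at -0.62 to -0.45 with adjusted p from 0.053 to 0.127. It was also lost, at an unchanged -0.57, without normal podocyte replicate 2 or 4 or glomerular replicate 2 or 4, where adjusted p was 0.050 to 0.053. Podocyte RNA was higher than glomerular RNA by 0.66 ± 0.20 (adjusted p = 0.0088), and the 4 pairs gave 0.57 to 0.78 although the groups overlapped.

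Coq7 encodes the di-iron hydroxylase of a late ring step. Its podocyte levels were 5.09, 4.59, 4.82 and 4.77 in normal mice, 4.64, 4.81, 4.74 and 4.64 at day 4, and 3.79, 4.37, 4.40 and 4.08 at day 7. Glomerular levels were 2.88, 2.64, 2.78 and 2.74. Every podocyte array, after LMB2 too, lay above every glomerular array, and every day 7 array lay below every normal and day 4 array. Podocyte RNA was higher than glomerular RNA by 2.06 ± 0.13 (adjusted p = 6.0e-09), which ranged from 1.68 to 2.42 over 4 other scalings. Day 4 did not differ from normal past the threshold (-0.11 ± 0.13, adjusted p = 0.56). Day 7 differed by -0.66 ± 0.13 from normal (adjusted p = 7.0e-04) and by -0.55 ± 0.13 from day 4 (adjusted p = 0.0065), and both calls held in 27 of 27 alternatives.

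Coq9 encodes the lipid-binding protein that presents the intermediate to Coq7. It read 1.18, 1.16, 0.90 and 1.01 in normal podocytes, 0.42, 0.38, 0.19 and 0.16 at day 4, and -0.58, -0.58, -0.36 and 0.16 at day 7. The 3 groups did not overlap and fell in the order of time, with day 7 replicate 4 next to the day 4 arrays. Coq9 was lower than in normal podocytes by a log2 difference of -0.78 ± 0.19 at day 4 (adjusted p = 0.0063) and -1.40 ± 0.19 at day 7 (adjusted p = 2.1e-05), both called in 27 of 27 alternatives. Day 7 was lower than day 4 by -0.63 ± 0.19 (adjusted p = 0.020). That call was lost without day 4 replicate 2 (-0.60), day 7 replicate 1 (-0.55) or day 7 replicate 2 (-0.55), with adjusted p of 0.052 to 0.059. Glomerular arrays read 1.31, 1.05, 0.53 and 1.40, overlapping with normal podocytes at both ends. The podocyte minus glomerular difference was -0.01 ± 0.19 (adjusted p = 0.97), and its sign turned with scaling, from -0.22 to 0.35, with no call.

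Coq8a and Coq8b encode atypical kinase-like proteins that the synthesis complex needs. Coq8a read -1.03, -4.03, -0.64 and -0.22 in normal podocytes, -1.07, -0.98, -1.05 and -1.09 at day 4, and -1.78, -1.52, -1.27 and -1.12 at day 7. Glomerular arrays read 1.04, -3.18, 0.03 and 0.96. Replicate 2 was far below the others in both normal groups, and each podocyte array was below the glomerular array of the same number. Podocyte minus glomerular RNA was -1.19 ± 0.86 (adjusted p = 0.22) without pairing. With the replicate number as a block it was -1.19 ± 0.25 (adjusted p = 0.0064), from pair differences between -2.07 and -0.67. Without glomerular replicate 2 the unpaired value was -2.15 (adjusted p = 0.0092), and without normal podocyte replicate 2 it was -0.34 (adjusted p = 0.69). After LMB2 no comparison passed: 0.43 ± 0.86 at day 4, 0.06 ± 0.86 at day 7 and -0.37 ± 0.86 for day 7 against day 4, with adjusted p of 0.74 to 0.96. Without normal podocyte replicate 2 the differences from normal turned to -0.42 at day 4 and -0.79 at day 7, neither called. A further Coq8a probe was well above background on 6 of 16 arrays and was not used.

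Coq8b read 1.36, 1.44, 0.97 and 1.14 in normal podocytes, 0.84, 1.06, 1.22 and 1.11 at day 4, and 0.86, 1.07, 0.84 and 0.85 at day 7. Its glomerular arrays read 0.83, 0.88, 0.52 and 0.83, all below every normal podocyte array. Each podocyte group overlapped with the next in time. Podocyte RNA was higher than glomerular RNA by 0.46 ± 0.12 (adjusted p = 0.0027), with pair differences of 0.32 to 0.56. Day 7 was lower than normal by -0.32 ± 0.12 (adjusted p = 0.033), which held in 16 of 27 alternatives. The call was lost without day 7 replicate 1, 3 or 4 or normal podocyte replicate 1 or 2, at -0.31 to -0.25 with adjusted p from 0.069 to 0.106. It was also lost with quantile normalization (-0.20, adjusted p = 0.142) and with normexp before it (-0.18, adjusted p = 0.119). At an unchanged -0.32 it was lost with no probe filter (adjusted p = 0.052) and with the 2 groups alone (adjusted p = 0.064). Day 4 did not differ past the threshold from normal (-0.17 ± 0.12, adjusted p = 0.31) or from day 7.

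Markers of other cells also moved after LMB2. Of the 16 podocyte markers, 12 were lower at day 7 than in normal podocytes, with a median of -0.98, against 6 of the 10 coenzyme Q genes with a median of -0.38 over the 10. The precipitated RNA was scaled within each array. Fewer podocytes, less marker RNA per podocyte and a larger share of RNA from other cells therefore cannot be told apart here. The summed intensity of the 11 mesangial and smooth muscle markers, in units of the array's 75th percentile, was 808 to 1100 at day 7 and 28.5 to 41.5 in normal podocytes, and 4 of the 11 rose with a median difference of 0.45 over the 11. The sum followed Tagln, a smooth muscle actin-binding protein, at 6.01 ± 0.25. Without it the other 10 summed to 21.4 to 30.8 at day 7 and 15.5 to 23.5 in normal podocytes. All 5 parietal epithelial markers tested rose at day 7. Of 14 endothelial markers 3 rose and 3 fell (median 0.06). They summed to 99.3 to 128 at day 7 and 248 to 271 in normal podocytes. Of 5 red blood cell markers 0 rose and 4 fell. Rises and falls were 2 and 1 of 12 leukocyte markers, and 1 and 1 of 10 distal nephron markers. Of all genes 21.6% rose and 36.7% fell at day 7. Every mesangial and smooth muscle, parietal epithelial and endothelial marker was well above background on every day 7 array. Only 3 of the 5 red blood cell markers were. The part of these markers in the changes of the coenzyme Q genes was not tested.

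Proximal tubule markers varied between arrays of 1 group. Their summed intensity ran from 70.7 to 236 in normal podocytes, from 29.4 to 316 at day 4, from 38.5 to 465 at day 7, and from 657 to 1429 in glomerular RNA, and limma called 0 of the 16 against normal at either day, with 0 at an unadjusted p under 0.05. The highest podocyte arrays in their groups were normal replicate 4, day 4 replicate 1 and day 7 replicate 4. Day 7 replicate 4 was also the highest day 7 array for Coq9 and the lowest for Coq6. Without these 3 arrays Coq9 differed by -1.59 and Coq6 by 1.04 at day 7. The called members then numbered 6 for podocyte against glomerular RNA (77.9% of all genes called), 3 at day 4 (27.2%), 7 at day 7 (54.2%) and 2 for day 7 against day 4 (26.7%). Pdss1 at day 4, Coq8b at day 7 and Coq5 between the days were the calls lost.

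**Figure D4:**
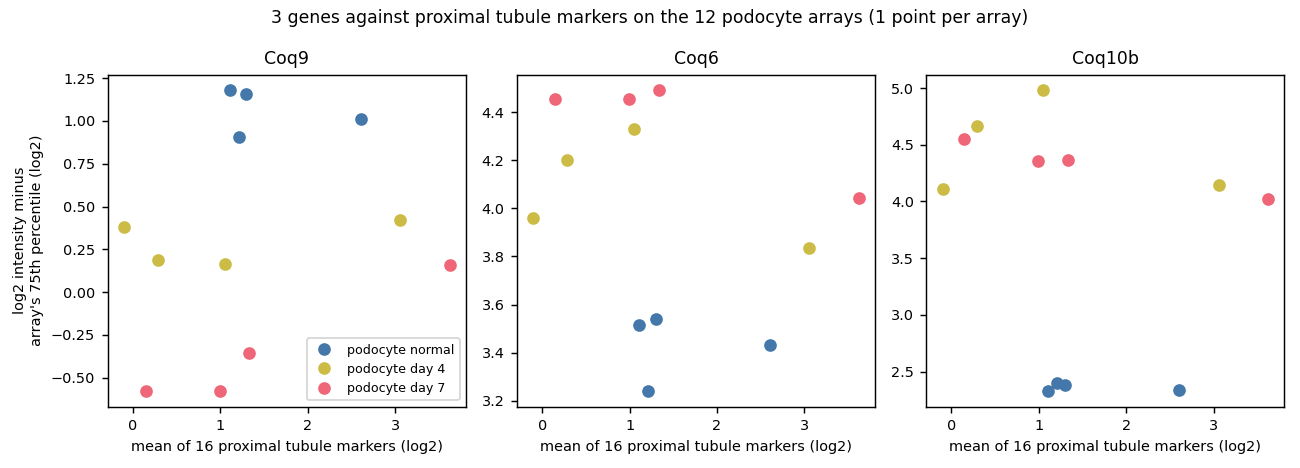
Level of Coq9, Coq6 and Coq10b (y axes, log2 of intensity minus the array's 75th percentile) against the mean level of 16 proximal tubule markers (x axes, log2) on the 12 podocyte arrays. Each point is 1 array coloured by group; day 7 replicate 4 lies farthest right at 3.62, with Coq9 at 0.16 and Coq6 at 4.04.

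Genes that act on coenzyme Q or its synthesis complex, other than the 10, were read from a list of 12. Counts of this and the following lists stand beside the shares of all genes named before: 51.6% higher and 27.5% lower in podocyte against glomerular RNA, 12.3% and 19.9% at day 4, 21.6% and 36.7% at day 7. For day 7 against day 4 these shares were 13.2% and 20.7%. In podocyte against glomerular RNA 9 were higher and 0 lower (list median 0.56, all-gene median 0.38). After LMB2, 2 rose and 2 fell at day 4, and 2 rose and 6 fell at day 7. Coq10b, a coenzyme Q chaperone of the inner membrane, changed most among the 12 at both times. It read 2.33, 2.38, 2.40 and 2.34 in normal podocytes, 4.14, 4.11, 4.66 and 4.99 at day 4, and 4.55, 4.35, 4.36 and 4.02 at day 7. No LMB2 array overlapped with normal, and the differences were 2.12 ± 0.17 at day 4 (adjusted p = 2.8e-07) and 1.96 ± 0.17 at day 7 (adjusted p = 2.8e-07). Its paralogue Coq10a fell, at -0.66 ± 0.12 on day 4 and -1.06 ± 0.12 on day 7. Fdx2, a mitochondrial ferredoxin, rose by 1.25 ± 0.19 at day 4 and 0.59 ± 0.19 at day 7. The kinase-like gene Adck2 fell at both times (-0.52 ± 0.10 and -0.91 ± 0.10), and Adck1 fell at day 7 (-0.75 ± 0.14). Between day 7 and day 4, 0 of the 12 rose and 5 fell. For this list, the isoprenoid list, the enzymes that reduce coenzyme Q and complex I, a direction with 0 called genes also had 0 at an unadjusted limma p under 0.05.

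The isoprenoid precursor list, the mevalonate pathway that feeds the tail, had 10 genes tested. In podocyte against glomerular RNA 5 were higher and 2 lower, among them Pmvk at 1.18 ± 0.17 and Acat2 at -0.96 ± 0.21. At day 4 only Hmgcs1 was called of the 10 (-0.40 ± 0.13), and at day 7 3 were called lower, with Pmvk at -0.41 ± 0.17 and Ggps1 at -0.26 ± 0.11. The list median at day 7 was 0.01. Enzymes that pass electrons to coenzyme Q outside complex I had 13 of 14 genes tested. In podocyte RNA 9 were higher and 2 lower than in glomerular RNA, with Gpd2, mitochondrial glycerol phosphate dehydrogenase, at 1.57 ± 0.10 and Aifm2, a coenzyme Q reductase that protects lipids from oxidation, at 1.44 ± 0.12. At day 4 0 rose and 3 fell, and at day 7 0 rose and 8 fell (list median -0.39, all-gene median -0.14). Sqor, sulfide quinone oxidoreductase, fell by 1.33 ± 0.13 on the log2 scale at day 7, Aifm2 by 0.84 ± 0.12, and Dhodh, of pyrimidine synthesis, by 0.70 ± 0.11.

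Of 36 nuclear genes of complex I, 24 were higher and 0 lower in podocyte than in glomerular RNA (list median 0.41, all-gene median 0.38). After LMB2 0 rose, 4 fell at day 4 and 18 at day 7, where the median was -0.33 against -0.14 for all genes and the lowest was Ndufb10 at -0.77 ± 0.15. Between day 7 and day 4 only Ndufb11 was called (-0.35 ± 0.12).

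**Figure D5:**
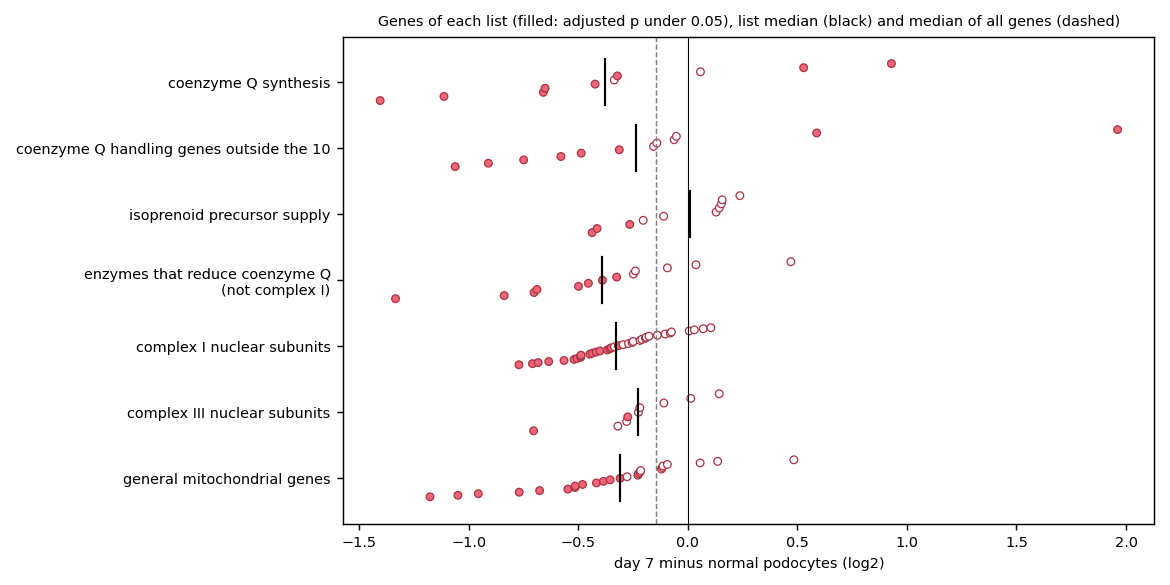
Difference of podocytes 7 days after LMB2 from normal podocytes (x axis, log2) for the genes of each list (y axis), with filled points at an adjusted p under 0.05. Black marks are list medians and the dashed line is the median of all genes at -0.14; Coq10b at 1.96 lies farthest to the right and Coq9 at -1.40 farthest to the left.

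For the members whose human counterparts are linked to nephrotic syndrome, the genes with the most similar pattern over the 16 arrays were listed by Pearson's r. The 16 points share 4 groups, 2 slides and 1 scaling, so r is a description. The nearest genes to Coq6 were Ptcd3 (r = 0.993), Ppp1r3f (0.989) and Cep89 (0.987). For Coq2 they were Endog (0.969), Cfap410 (0.960) and Topbp1 (0.958). Pdss2 was nearest to Oxsm (0.936), P4ha1 (0.916) and Wrap53 (0.915), and Coq8b to Mon1a (0.935), Mrpl47 (0.914) and Slc39a3 (0.914).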

How the data were processed

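Glomerular and podocyte polysome RNA was hybridised to 16 Agilent arrays of 1 colour, 4 per group, grouped by sample titles. Per the file headers, Feature Extraction 11.5.1.1 gave every spot a linear processed intensity, background-subtracted but not normalized between arrays, with raw median intensities of spot and local background and with flags. The authors' deposited table has log2 values for 39430 probes, each column being 1 array's log2 intensity plus a constant, with column medians from -3.17 to -2.51. Its scale is thus log2, its direction is that of the scanner values, and the basis of the shift is not given in the sources used here. Replicates 1 to 3 of both normal groups carry another replicate's values of the same group there, and scanner file names were followed.

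Control and outlying spots were dropped and spots of a probe averaged, leaving 55681 probes. RefSeq accessions named 26582 of them by 1 symbol (20145 genes) and left 29099 unnamed. From log2 processed intensity the 75th percentile of each array was subtracted before testing. A named probe was kept if every array of some group had it well above background (19060 probes, after 58 with a missing value were dropped). The kept probe with the highest mean stood for its gene, which gave 14575 genes. The 10 members had 14 probes, 13 of them kept. All 16 arrays entered 1 limma fit with group as the only term and 12 residual degrees of freedom (lmFit and eBayes of limma 3.58.1 in R 4.3.3). P-values were adjusted by Benjamini-Hochberg, and tables and figures were made with Python 3.11.15. The fit was tested on simulated data with known log2 changes. Depending on the comparison, it recovered 20.9% to 38.8% of genes changed by 0.5 and 67.2% to 77.6% of those changed by 1. In each simulated comparison 67 genes were changed by 0.5, 67 by 1 and 66 by 2, of 14575. In the data 32.2% to 79.1% of genes were called. With so few changed genes the adjusted threshold is stricter, so the simulated shares do not give the recovery in these data. A difference of such size can fail to pass, as that of Coq5 at day 4 did (-0.54). Every member is named. From each other list, the genes named are among the 3 called genes per direction and comparison with the largest difference, and the others of these are not reported here. The members and lists were chosen with earlier results of these data known.

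Same-numbered normal podocyte and glomerular arrays deviated together (r = 0.42 to 0.51 in 4 of 4 numbers), so the numbers pair these samples. The main fit does not use this pairing, and its standard errors for that comparison leave it out. Alternatives were 4 scalings or background corrections (normexp offset 50, on median signals), 2 probe filters, the mean of a gene's probes, the value table, the 2 groups alone, the replicate block and each array left out. Leaving out 3 arrays high in proximal tubule markers was chosen after seeing the data.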

Additional observations from a re-analysis of the deposited data

Results flagged for a closer look

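Each of the 10 genes was examined in each group of 4 arrays for an array far from the other 3, by the gap to its nearest neighbour over the whole range of the group (Dixon's ratio). Chance marks about 1 in 20 groups, and 4 of 40 were marked. Coq3 at day 4 had a ratio of 0.914, from replicate 4 at -0.97 above the other 3 arrays, which read -3.83 to -3.59. Coq6 at day 7 had 0.91, from replicate 4 at 4.04 below arrays at 4.45 to 4.49. Coq8b at day 7 had 0.922, from replicate 2 at 1.07 above arrays at 0.84 to 0.86. Coq8b in glomerular RNA had 0.865, from replicate 3 at 0.52 below arrays at 0.83 to 0.88.

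Levels after LMB2 differed between the days for 3 genes by limma's test of day 7 against day 4. Day 7 minus day 4 was -0.628 for Coq9 (adjusted p = 0.020), -0.572 for Coq5 (adjusted p = 0.043) and -0.546 for Coq7 (adjusted p = 0.0065), with n = 4 arrays per group. For each of the 3 genes all 4 day 7 arrays lay below all 4 day 4 arrays. The normal arrays do not enter the size of these differences. Both days were on 1 slide but in different rows, so row and day cannot be told apart.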

How the results depend on the processing

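Over 27 alternatives, 1076 values of single members were recomputed. Of these 1006 stayed on their side of the threshold, 17 of them uncalled values that changed sign, 52 lost the call, 17 gained one and 1 turned round. The one turned round was Coq2 in podocyte against glomerular RNA, at 0.33 after setting array medians to 0. That scaling adds the same 0.36 to the difference of every gene in this comparison. With 1 array left out, the called members ranged from 6 to 7 for podocyte against glomerular RNA, from 3 to 5 for day 4 and from 7 to 8 for day 7 against normal, and from 1 to 4 for day 7 against day 4. The last count was 1 without day 4 replicate 2, without day 7 replicate 1 or without day 7 replicate 2.

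Blocking on replicate number, the called members were 7 for podocyte against glomerular RNA, where it added Coq8a and changed no other call. In the other comparisons the samples share only a number: same-numbered correlations ran from -0.36 to 0.08 for day 4 and -0.03 to 0.49 for day 7 against normal, and -0.41 to 0.16 between the days. There the block left 1 member at day 4 (0 higher, 1 lower), 6 at day 7 and 2 between the days. The block was fitted on the 2 groups compared alone. All-gene calls at day 4 were 1257 higher and 1053 lower with it, against 1673 and 2353 for the same arrays without it. The fit of all 16 arrays gave 1799 and 2896. Between the days they were 1293 and 1770 with the block, against 1809 and 2751 for the same arrays without it. There the fit of all 16 arrays gave 1930 and 3021. Setting array medians to 0 gave 1180 higher and 5878 lower genes at day 4, and 1928 and 7508 at day 7, against 3153 and 5349 as reported. Slide as a block could not be fitted, since slide is confounded with LMB2. Coq3 gave no value under the filter on all 16 arrays. Signal near background limits Coq3, above it on 11 of 16 arrays.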

Other observations

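Of 9 nuclear genes of complex III, which takes electrons from coenzyme Q, 4 were higher and 0 lower in podocyte than in glomerular RNA (0 lower at an unadjusted limma p under 0.05 too). Of all genes 51.6% were higher and 27.5% lower, and the list median of 0.16 was below the all-gene median of 0.38. Uqcrc2, a core subunit, stood at 0.48 ± 0.13 and Uqcrc1, another, at 0.47 ± 0.12 (log2, SE, n = 4 arrays per group). At day 7 after LMB2, Cyc1, the cytochrome c1 subunit, fell by 0.70 ± 0.14 on the log2 scale and Uqcrb by 0.27 ± 0.11, and the other 7 did not pass limma's test. The complex III median there was -0.23, against -0.14 for all genes, of which 36.7% were lower. Of 25 general mitochondrial genes tested from a list of 26, 20 were higher and 1 lower in podocyte RNA, with a median of 0.55, against 51.6% higher, 27.5% lower and a median of 0.38 for all genes. The highest was Vdac1, a channel of the outer membrane, at 1.46 ± 0.09, and the lower one was Ppargc1a, a coactivator of mitochondrial genes, at -1.62 ± 0.25. At day 7, 0 rose (1 at an unadjusted limma p under 0.05) and 14 fell against normal podocytes, with a median of -0.31, against 36.7% lower and a median of -0.14 for all genes. Immt, a cristae organiser, differed by -1.18 ± 0.12, Clpp, a matrix protease, by -1.05 ± 0.12, and Tfam, of mitochondrial DNA, by -0.96 ± 0.11. Between day 7 and day 4, 3 of the 25 rose and 5 fell, against 13.2% higher and 20.7% lower for all genes.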
